A study of Mus musculus with 20 samples.

Results

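Clps, Pnliprp2 and Cela1 are 3 digestive genes best known from the exocrine pancreas, and they were described here in crypts of the mouse small intestine. Clps encodes colipase, the cofactor that anchors pancreatic lipase to fat droplets covered by bile salts. Pnliprp2 encodes pancreatic lipase-related protein 2, a secreted lipase that also splits phospholipids and galactolipids. Cela1 encodes chymotrypsin-like elastase 1, a secreted serine protease. The genes were chosen by name, because earlier results of these data had them higher in Xiap-/- than in wild-type (WT) crypts of mice housed apart, and 3 of 23020 genes in the table are members. All 3 were also among the 9521 genes whose mean over all libraries reached log2 of 10, the minimum for testing.

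RNA of small intestinal crypts, the pits that hold stem, Paneth and other epithelial cells, was sequenced from the 3' ends of polyadenylated transcripts with molecular identifiers. The libraries came from C57BL/6 mice, 1 library per labelled sample, and fell into 4 groups by genotype and housing. Xiap-/- mice (n = 4) and WT mice (n = 6) were housed by genotype, here called housed apart, and Xiap-/- mice (n = 5) and WT mice (n = 5) were co-housed for 4 weeks. Xiap encodes an inhibitor of cell death that also takes part in innate immune signalling. The age of the mice, the deleted part of Xiap and the cages are not given in the sources used here, so the p-values rest on the spread between libraries taken as independent.

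In the gut, the pancreas delivers most of the lipases and proteases that act on food. Lipase cuts triglycerides into fatty acids and monoglycerides, which the absorptive cells take up, rebuild into fat and export. Elastase cuts proteins beside small side chains, after trypsin has removed its activation peptide. Expression outside the pancreas is also known for some of these genes, and in mice Clps and Pnliprp2 are found among transcripts of Paneth cells, the antimicrobial cells at the crypt base.

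Clps lies on chromosome 17 (28558149 to 28560766, minus strand, GRCm38, GENCODE M21), with 3 exons in its first listed transcript. Pnliprp2 lies on chromosome 19 (58759719 to 58777534, plus strand), with 12 exons. Cela1 lies on chromosome 15 (100674421 to 100687921, minus strand), with 8 exons in its first listed transcript. Pnliprp2 is the last of 3 neighbouring lipase genes in the order Pnlip, Pnliprp1, Pnliprp2. The other 2 were scarce in these libraries, with mean levels of -2.82 for Pnlip, the main pancreatic triglyceride lipase, and 0.69 for Pnliprp1 (all levels are normalized values on a log2 scale, as deposited). The start regions of Pnliprp2 and Cela1 are shown so that the letters they share can be read beside their levels. They were taken from RefSeq on GRCm38.p6, run from 250 bases before to 50 bases after the start, and have searched motifs in capitals. 2 of the 3 genes had an entry.

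Pnliprp2, chr19:58759473-58759772, plus strand: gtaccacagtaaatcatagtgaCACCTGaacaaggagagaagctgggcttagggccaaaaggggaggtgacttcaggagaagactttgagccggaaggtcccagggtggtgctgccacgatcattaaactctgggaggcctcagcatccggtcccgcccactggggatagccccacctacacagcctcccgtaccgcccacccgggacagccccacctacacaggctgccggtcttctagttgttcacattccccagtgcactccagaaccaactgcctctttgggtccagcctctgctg
Cela1, chr15:100687871-100688170, minus strand: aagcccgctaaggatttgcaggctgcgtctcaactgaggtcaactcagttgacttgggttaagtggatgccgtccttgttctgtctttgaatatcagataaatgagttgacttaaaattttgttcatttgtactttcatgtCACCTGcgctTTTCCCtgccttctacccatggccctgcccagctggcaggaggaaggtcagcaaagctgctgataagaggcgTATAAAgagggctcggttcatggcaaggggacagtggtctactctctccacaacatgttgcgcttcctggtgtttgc

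The motifs, searched on both strands and chosen after the sequences were seen, were CACCTG and TTTCCC (the E-box and TC-box letters known from pancreas genes bound by the acinar factor PTF1), TATAAA (the core of the TATA-box) and TTTATG (letters bound by the intestinal CDX factors). Each promoter held CACCTG once, a motif found in 20.2% of 32851 promoters of the same length. It begins 228 bases before the start of Pnliprp2 and 109 bases before that of Cela1. In Cela1 it is followed by TTTCCC, 99 bases before the start, and by TATAAA, 27 bases before it. The order CACCTG then TTTCCC, on 1 strand and at most 30 bases apart, stood in 0.347% of all promoters, TTTCCC alone in 25.2% and TATAAA in 13.6%. TTTATG, present in 11.8% of promoters, was in neither window. These matches describe the letters and do not show binding.

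Clps was highest in Xiap-/- mice housed apart and close to level in the other 3 groups. Its levels in Xiap-/- mice housed apart, from replicate 1 to 4, were 8.60, 9.0, 8.36 and 8.37, and those of WT mice housed apart had a lowest value of 7.55, a median of 7.71 and a highest of 8.41. In co-housed Xiap-/- mice they were 7.98, 7.78, 8.27, 7.44 and 7.96. In co-housed WT mice they were 8.01, 7.58, 7.70, 7.69 and 7.46. Among mice housed apart, 2 of 4 Xiap-/- libraries lay above every WT library, and 1 WT library, replicate 5, lay inside the Xiap-/- range. In the co-housed groups, 1 Xiap-/- library lay above and 1 below every WT library.

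Pnliprp2 was also highest in Xiap-/- mice housed apart. Its levels in Xiap-/- mice housed apart were 6.91, 6.86, 6.53 and 6.63, against a lowest value of 5.45, a median of 5.90 and a highest of 6.54 in WT mice housed apart. Of the 4 Xiap-/- libraries housed apart, 3 lay above every WT library, and WT replicate 5 lay just above Xiap-/- replicate 3. In co-housed Xiap-/- mice the levels were 6.17, 6.06, 5.99, 5.94 and 6.10. In co-housed WT mice they were 5.82, 5.88, 5.80, 6.29 and 5.70. The co-housed Xiap-/- libraries lay close together (SD 0.09), and 4 of 5 co-housed WT libraries lay below all of them, while WT replicate 4 lay above all of them.

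Cela1 varied over a narrower range. Its levels in Xiap-/- mice housed apart were 5.30, 5.05, 5.50 and 4.98, against a lowest value of 4.67, a median of 4.91 and a highest of 5.02 in WT mice housed apart. In co-housed Xiap-/- mice they were 4.95, 4.70, 4.78, 4.98 and 4.77. In co-housed WT mice they were 4.96, 4.73, 4.63, 4.70 and 4.73. Of the 4 Xiap-/- libraries housed apart, 3 lay above every WT library, and replicate 4 lay just below WT replicate 5.

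**Figure D1:**
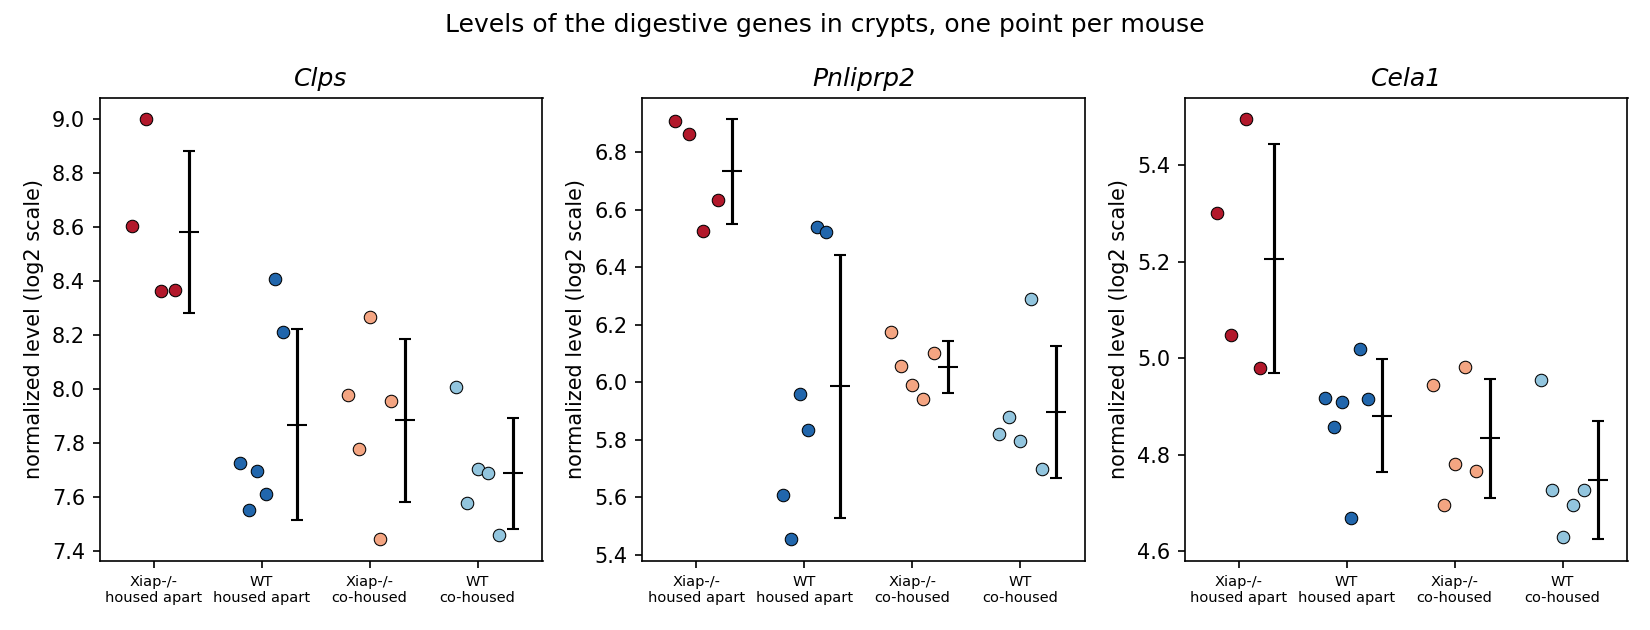
Normalized level on a log2 scale (vertical axis, a separate range for each gene) of Clps, Pnliprp2 and Cela1 in each library (points) of the 4 groups, with the group mean and SD beside the points. Xiap-/- mice housed apart have the highest mean for each gene (8.58, 6.73 and 5.21), and WT replicates 5 and 6 stand above the other WT mice housed apart for Clps and Pnliprp2.

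The genotype difference in mice housed apart is the one on which the genes were chosen, so it is described here and supports nothing. Clps averaged 8.58 ± 0.30 (SD, n = 4) in Xiap-/- mice and 7.87 ± 0.35 (n = 6) in WT mice, a difference of 0.72 ± 0.17 (SE from the model). Pnliprp2 averaged 6.73 ± 0.18 in Xiap-/- mice and 5.99 ± 0.46 in WT mice, a difference of 0.75 ± 0.17. Cela1 averaged 5.21 ± 0.24 in Xiap-/- mice and 4.88 ± 0.12 in WT mice, a difference of 0.33 ± 0.10. Counted from the highest of the 9521 differences, Pnliprp2 stood at place 10, Clps at place 12 and Cela1 at place 214. In limma, 0 of the 3 passed an adjusted p of 0.05 over all genes, where 0.452% of tested genes passed, 0.294% with Xiap-/- higher and 0.158% with Xiap-/- lower. This count depends on the setting, and nothing is read from it. All genes passing in each setting, 43 in the main fit, are given in brackets. The count was 3 without WT replicate 5 (697) or without WT replicates 5 and 6 (694), and 2 without WT replicate 6 housed apart (67). It was 1 without co-housed Xiap-/- replicate 4 (34) or without co-housed WT replicate 4 (29). It was also 2 with array quality weights (385), with the replicate block (350) or without trend and robust moderation (65). With a minimum mean of 5 it was 1 of 2 tested (27). Groups without overlap were seen for 0 of the 3, and for 0.819% of tested genes with Xiap-/- higher and 1.05% with Xiap-/- lower.

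Of the 6 WT mice housed apart, replicates 5 and 6 held levels near those of the Xiap-/- mice for the lipid genes, with 8.41 and 8.21 for Clps and 6.54 and 6.52 for Pnliprp2. For Cela1 they lay at 5.02 and 4.91, inside or just above the range of the other WT mice. Without both libraries, an alternative chosen after seeing the data, the difference was 0.94 ± 0.14 for Clps, 1.02 ± 0.12 for Pnliprp2 and 0.37 ± 0.11 for Cela1. Depth per library is unknown, and a proxy for it differed between these groups. The proxy, the percentage of 1854 rare genes lifted off the value they hold in most libraries, ran from 9.55% to 32.1% in Xiap-/- mice and from 4.58% to 14.9% in WT mice housed apart, with WT replicate 5 at 14.9% and WT replicate 6 at 4.58%. The 32.1% was that of Xiap-/- replicate 2, which also had the highest Clps level (9.0), and the next Xiap-/- library stood at 16.6%. Without replicate 2, and with no covariate, the Clps difference was 0.58 ± 0.17. The r of the proxy with the deviations of the genes from their group means, over 20 libraries, was 0.56 for Clps (rho 0.49), 0.29 for Pnliprp2 (rho 0.29) and -0.29 for Cela1 (rho -0.08). With this proxy as a covariate the difference was 0.41 ± 0.17 for Clps, 0.60 ± 0.20 for Pnliprp2 and 0.40 ± 0.12 for Cela1. A part of depth in the differences was not tested beyond these values.

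The choice of the genes did not use the co-housed libraries, and in these 0 of the 3 genes passed between the genotypes. The comparison asks whether the genotypes differ in co-housed mice. In mice housed apart, which were housed by genotype, genotype and cage cannot be told apart. Clps averaged 7.88 ± 0.30 (SD, n = 5) in Xiap-/- mice and 7.69 ± 0.21 (n = 5) in WT mice, a difference of 0.20 ± 0.17 (SE; 95% interval -0.15 to 0.55; limma adjusted p = 0.675). Pnliprp2 averaged 6.05 ± 0.09 in Xiap-/- mice and 5.90 ± 0.23 in WT mice, a difference of 0.16 ± 0.17 (interval -0.19 to 0.50; limma adjusted p = 0.737). Cela1 averaged 4.83 ± 0.12 in Xiap-/- mice and 4.75 ± 0.12 in WT mice, a difference of 0.09 ± 0.10 (interval -0.11 to 0.28; limma adjusted p = 0.747).

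The background in co-housed mice was low, with 0.0315% of tested genes passing, 0.021% higher and 0.0105% lower in Xiap-/- mice. Groups did not overlap for 0 of the 3 genes, against 1.33% of all tested genes with Xiap-/- higher and 1.75% with Xiap-/- lower. Each of the 3 differences was above 0, as were those of 51.1% of all tested genes. Each stayed above 0 without any one of the 10 co-housed libraries (0.10 to 0.31 for Clps, 0.11 to 0.25 for Pnliprp2 and 0.05 to 0.14 for Cela1). Leaving out a library housed apart cannot change these differences. The intervals allow differences of up to 0.55, 0.50 and 0.28, so the lack of a call does not show equal levels.

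The 2 housing differences and the difference between the genotype differences share the libraries housed apart, and are given without a test. In Xiap-/- mice, co-housed minus housed apart was -0.70 ± 0.18 for Clps, -0.68 ± 0.18 for Pnliprp2 and -0.37 ± 0.10 for Cela1 (SE). With the depth proxy as a covariate that of Clps was -0.43 ± 0.17. All 5 co-housed Xiap-/- libraries lay below all 4 housed apart for Clps and Pnliprp2, a lack of overlap that 2.98% of tested genes had in this direction and 2.65% in the other, and from which nothing is read because the same housed-apart libraries chose the genes. For Cela1, 4 of the 5 lay below all 4, and co-housed replicate 4 lay just above the lowest of them (both 4.98 to 2 decimals).

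In WT mice the housing difference was -0.18 ± 0.16 for Clps, -0.09 ± 0.16 for Pnliprp2 and -0.13 ± 0.09 for Cela1, and the groups overlapped for each gene (0.305% of tested genes did not overlap with co-housed mice higher and 0.221% with co-housed mice lower). Without WT replicates 5 and 6 housed apart the values were 0.04 ± 0.14 for Clps and 0.18 ± 0.11 for Pnliprp2, so the sign turned for both, and -0.09 ± 0.10 for Cela1. For Pnliprp2 the sign also turned without WT replicate 5 alone (0.02) or WT replicate 6 alone (0.02) and with array quality weights (0.02). The genotype difference housed apart minus that of co-housed mice was 0.52 ± 0.24 for Clps, 0.59 ± 0.24 for Pnliprp2 and 0.24 ± 0.14 for Cela1. That of Clps was 0.22 ± 0.22 with the depth proxy as a covariate. That of Cela1 was 0.14 ± 0.13 without Xiap-/- replicate 3 housed apart and 0.13 ± 0.13 with array quality weights.

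**Figure D2:**
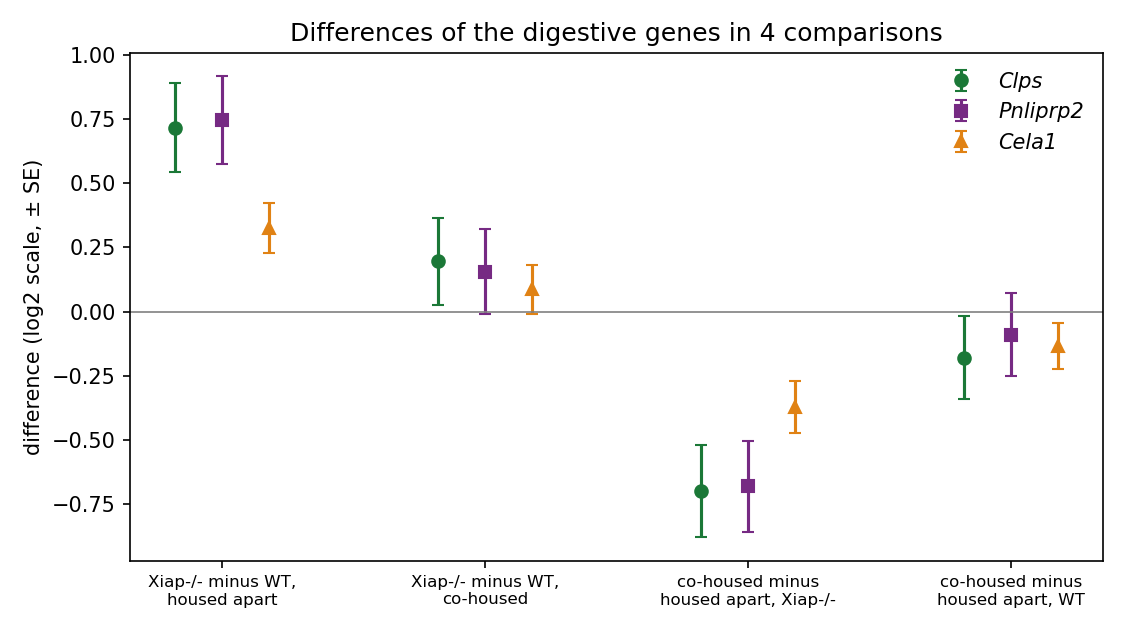
Difference on the log2 scale (vertical axis, with SE from the model) of Clps, Pnliprp2 and Cela1 in the 2 genotype comparisons and the 2 housing comparisons (horizontal axis). The genotype differences lie at 0.72, 0.75 and 0.33 in mice housed apart and at 0.20, 0.16 and 0.09 in co-housed mice.

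In order of level, Xiap-/- mice housed apart came first for each gene. For Clps, co-housed Xiap-/- mice (7.88) and WT mice housed apart (7.87) followed, then co-housed WT mice (7.69), and these 3 neighbours differed by less than the SD of WT mice housed apart. For Pnliprp2 the order below the top was co-housed Xiap-/- (6.05), WT housed apart (5.99) and co-housed WT (5.90), again within that SD. For Cela1 it was WT housed apart (4.88), co-housed Xiap-/- (4.83) and co-housed WT (4.75), each within 1 SD of its neighbour.

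With the group means removed, Clps and Pnliprp2 correlated more closely with each other over all 20 libraries than either did with Cela1. WT replicates 5 and 6 housed apart lay above the other WT libraries of their group for both Clps and Pnliprp2, and their part in this was not tested. The correlations are descriptions over 20 libraries without p, since the genes were chosen together and depth and epithelial content are shared by all genes of a library. For deviations from the group means, Pearson's r was 0.66 between Clps and Pnliprp2 (Spearman's rho 0.76, and r = 0.58 without the 2 libraries farthest out). The 2 farthest were judged on 1 gene only, Clps in its pairs and Pnliprp2 beside Cela1. Where a summed marker level is set beside a gene below, they were judged on that gene. The r of deviations was 0.09 between Clps and Cela1 (rho 0.04, and r = 0.10 without the 2 farthest) and 0.09 between Pnliprp2 and Cela1 (rho 0.00, and r = -0.09 without them). In the 10 co-housed libraries, which did not enter the choice of the genes, r between the levels of Clps and Pnliprp2 was 0.32 (rho 0.28, and r = 0.41 without the 2 farthest). In the 10 libraries housed apart it was 0.94 (rho 0.94, and r = 0.96 without the 2 farthest), and these libraries hold the genotype difference on which the genes were chosen. Cela1 also followed the other genes there, with r = 0.61 to Clps (rho 0.84, and r = 0.72 without the 2 farthest) and r = 0.60 to Pnliprp2 (rho 0.77, and r = 0.62 without them). In the co-housed libraries r was 0.17 between Clps and Cela1 (rho 0.19, but r = 0.70 without the 2 farthest) and 0.05 between Pnliprp2 and Cela1 (rho 0.04, and r = 0.19 without them). Without the 2 libraries whose Clps level was farthest from the median, Clps thus lay closer to Cela1 (0.70) than to Pnliprp2 (0.41) there.

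**Figure D3:**
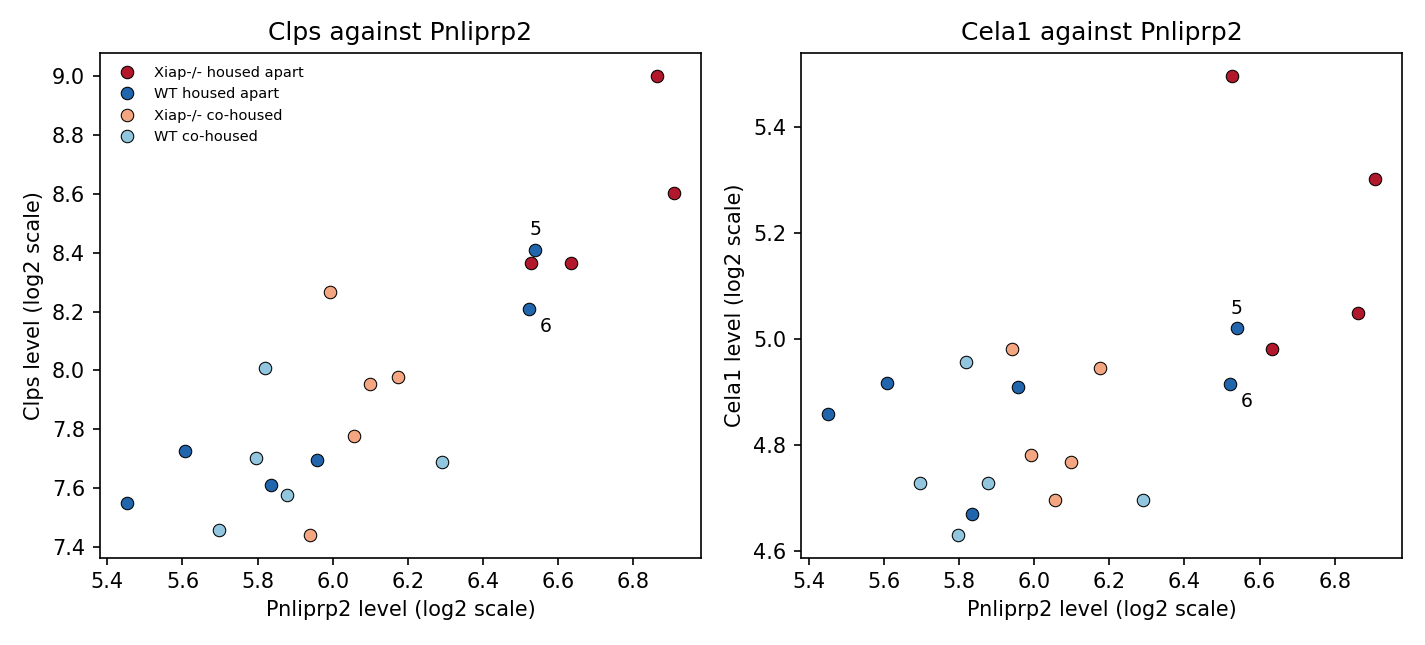
Level of Clps (left) and of Cela1 (right) against the level of Pnliprp2, all on a log2 scale, with 1 point per library coloured by group and WT replicates 5 and 6 housed apart numbered. On the left these 2 lie beside the Xiap-/- mice housed apart (Clps 8.41 and 8.21), and on the right they lie among or just above the other WT mice (Cela1 5.02 and 4.91).

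The genes whose levels followed Clps and Pnliprp2 most closely over the 20 libraries included a secreted lectin and a ribonuclease of the pancreatic type. For Clps the 5 highest r belonged to the secreted lectin Reg4 (0.89), the ribonuclease Rnase1 (0.86), Pnliprp2 (0.86), the lipid droplet protein Hsd17b13 (0.83) and Pbld2 (0.83). For Pnliprp2 they belonged to Reg4 (0.93), the butyrylcholinesterase Bche (0.88), the monoamine oxidase Maob (0.87), the cytochrome P450 Cyp2j6 (0.87) and the glutathione transferase Gstm6 (0.87). For Cela1 they belonged to the glucuronosyltransferase Ugt2b5 (0.85), the lipid droplet protein Hsd17b11 (0.84), the sulfurtransferase-like Tstd1 (0.84), Gemin7 of the SMN complex (0.83) and the hydrolase Cmbl (0.83). No gene stood in both the Cela1 list and another.

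With the group means removed, Reg4 remained among the 5 closest genes for Clps (0.76) and for Pnliprp2 (0.83). The others for Clps were the nuclear receptor of fatty acids Pparg (0.80), the alpha-defensins Defa3 (0.76) and Defa17 (0.75) and the gene Gm14851 (0.74). Alpha-defensins are near-identical copies whose reads can be split between genes, so their single values are uncertain. For Pnliprp2 the others were Gid4 (0.87), 1700011H14Rik (0.86), Nbl1 (0.85) and the growth hormone receptor Ghr (0.79). For Cela1 they were the fucosidase Fuca2 (0.86), RP23-269H21.1 (0.82), Exoc3l4 (0.79), the paraoxonase Pon2 (0.78) and the ubiquitin ligase Rnf139 (0.78).

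Reg4 lay at 8.37, 8.75, 8.41 and 8.37 in Xiap-/- mice housed apart, against 7.56, 7.45, 7.57, 7.64, 8.22 and 8.25 in WT mice housed apart, so WT replicates 5 and 6 were again the highest. Reg4 was named for its likeness to Clps and Pnliprp2 over these same libraries, so its differences, 0.69 ± 0.14 in mice housed apart and 0.22 ± 0.13 in co-housed mice (SE), are given without a test. Rnase1, a secreted ribonuclease, lay at 5.96, 6.24, 6.12 and 6.12 in Xiap-/- mice housed apart, against 5.37, 5.25, 5.60, 5.47, 6.05 and 5.77 in WT mice housed apart.

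Rnase1 belonged to the fixed list of 27 other pancreatic enzymes and granule proteins. It is also among the genes closest to Clps over the same libraries, so its call is not independent of the choice of Clps. Of the 17 found by symbol, 2 reached the minimum mean, and 1 of these, Rnase1, rose in Xiap-/- mice housed apart, by 0.52 ± 0.11 (limma adjusted p = 0.0263), where 0.294% of all tested genes rose. The call held in 14 of the 20 fits that left out 1 library. These 20 include the fits without a co-housed library, which cannot change this difference. Every loss came with a library housed apart left out, namely Xiap-/- replicate 2 (limma adjusted p = 0.134), 3 (0.0787) or 4 (0.118) or WT replicate 1 (0.0799), 2 (0.0744) or 4 (0.0569). It was also lost with the depth proxy as a covariate (0.37, limma adjusted p = 0.796) and with only the 2 groups in the fit (limma adjusted p = 0.114). The trypsin inhibitor Spink1, the other tested gene of the list, differed by -0.12 ± 0.11 in mice housed apart and by -0.04 ± 0.11 in co-housed mice, and Rnase1 by 0.01 ± 0.11 in co-housed mice, with none passing.

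The other 15 genes of that list, which include the defining enzymes of pancreatic acinar cells, lay below the minimum mean. The highest of them were syncollin (Sycn, a granule protein) at 1.85, the protease Ctrl at 1.24, Pnliprp1 at 0.69 and the chymotrypsinogen Ctrb1 at -0.58. The lipase Pnlip lay between -2.84 and -2.76 in every library and the bile salt-activated lipase Cel had a mean of -3.03, both near the lowest values of the table. Summed, these 15 genes reached 3.45 to 3.54 in Xiap-/- mice housed apart, 3.35 to 3.45 in WT mice housed apart, 3.35 to 3.47 in co-housed Xiap-/- mice and 3.33 to 3.40 in co-housed WT mice, as log2 of the sum of unlogged levels. The other 10 symbols of the 27 were not matched in the table.

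**Figure D4:**
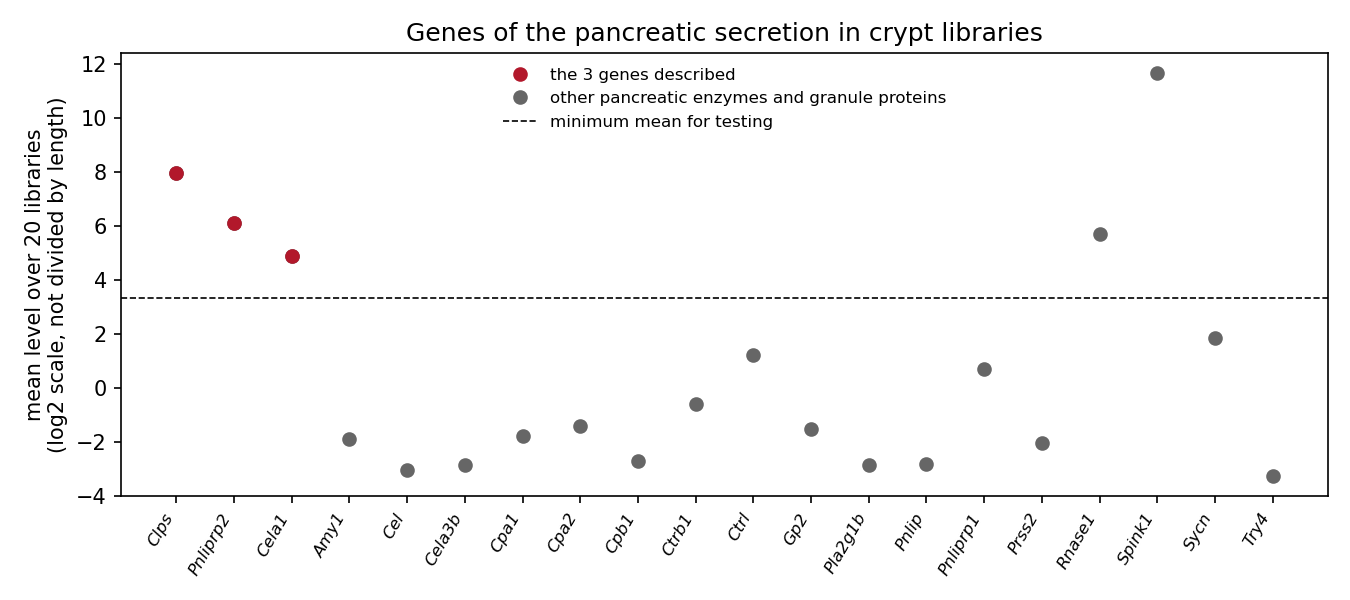
Mean level over the 20 libraries (vertical axis, log2 scale, not divided by transcript length) of Clps, Pnliprp2, Cela1 and the 17 other pancreatic enzymes and granule proteins found by symbol, with the minimum mean for testing as a dashed line. Only Spink1 (11.67) and Rnase1 (5.70) of the 17 lie above the line, and the other 15 lie at or below 1.85.

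Regulators of acinar cell identity were measured too. Of 5, 4 were found and 3 were tested, and none passed in either genotype comparison. Ptf1a, the gene of the PTF1 factor named above, was not matched in the table, so its level is unknown here. Their median difference was 0.02 in mice housed apart and -0.06 in co-housed mice, beside 0.00 and 0.00 over all tested genes. The nuclear receptor Nr5a2 differed by -0.03 ± 0.12 and Gata4 by 0.07 ± 0.09 in mice housed apart, while they differed by -0.06 ± 0.11 and -0.10 ± 0.09 in co-housed mice. Rbpjl, a partner of PTF1 in acinar cells, had a mean of -3.03.

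Genes that act before and after the lipases were described from fixed lists, and none of them passed in either genotype comparison. Of 12 tested lipases and lipid hydrolases outside the pancreatic list, 0 rose and 0 fell, with a median of 0.13 in mice housed apart and -0.05 in co-housed mice. The carboxylesterases Ces2e and Ces2a differed by 0.10 ± 0.12 and 0.46 ± 0.17 in mice housed apart and by 0.09 ± 0.12 and 0.10 ± 0.16 in co-housed mice. Of 13 tested genes of fat uptake and re-esterification, 0 rose and 0 fell, with medians of 0.15 in mice housed apart and 0.00 in co-housed mice. The fatty acid binding proteins Fabp2 and Fabp1 differed by 0.02 ± 0.15 and 0.33 ± 0.15 in mice housed apart and by 0.12 ± 0.14 and -0.15 ± 0.15 in co-housed mice.

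For the elastase, the lists were its fellow proteases and its inhibitors. Of 9 tested serine proteases of the gut epithelium, 0 rose and 0 fell, with medians of -0.11 in mice housed apart and -0.01 in co-housed mice. The protease Prss32 differed by -0.27 ± 0.11 and the matriptase gene St14 by -0.19 ± 0.09 in mice housed apart. Tmprss15, the enteropeptidase that activates trypsinogen, had a mean of 3.47 and differed by -0.20 ± 0.11 (chosen after its values were seen). Of 5 tested inhibitors, 0 rose and 0 fell, with medians of -0.09 and 0.09, and Spink4 and Spint2 differed by -0.11 ± 0.12 and -0.08 ± 0.09 in mice housed apart.

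Markers of the crypt's own cells were set beside the 3 genes. Of 15 tested Paneth cell products, out of 18 on the list, 0 rose and 0 fell in either genotype comparison, and 11 lay above 0 in mice housed apart and 13 in co-housed mice (medians 0.24 and 0.08). Over all tested genes 49.1% and 51.1% lay above 0. The alpha-defensins on the list are near-identical copies, so these counts are not of independent genes. Defa24 and Defa30, the 2 with the highest means, differed by 0.02 ± 0.14 and 0.05 ± 0.14 in mice housed apart. Others differed by more, such as Ang4 by 0.53 ± 0.15 and Defa26 by 0.44 ± 0.18 (chosen after their values were seen), while 4 lay below 0. The summed level of the list ran from 15.55 to 15.89 in Xiap-/- mice and from 15.30 to 15.74 in WT mice housed apart, and from 15.22 to 15.92 in Xiap-/- mice and from 15.17 to 15.84 in WT mice when co-housed. For deviations from group means, r with that summed level was 0.51 for Clps (rho 0.49, and r = 0.42 without the 2 farthest), 0.42 for Pnliprp2 (rho 0.52, and r = 0.50 without them) and -0.11 for Cela1 (rho -0.12, and r = -0.10 without them).

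Absorptive enterocyte markers, 12 of 12 tested, had 0 that rose or fell, with medians of 0.01 in mice housed apart and 0.06 in co-housed mice. Their summed level ran from 15.03 to 15.49 in Xiap-/- mice and from 14.86 to 15.65 in WT mice housed apart. Its r with the deviations of Clps, Pnliprp2 and Cela1 was 0.43, 0.59 and 0.61 (rho 0.41, 0.48 and 0.58, and r = 0.36, 0.35 and 0.56 without the 2 farthest). Of 8 tested goblet cell markers 0 passed, with medians of 0.05 and 0.15, and Zg16 and Tff3 differed by -0.03 ± 0.14 and -0.06 ± 0.13 in mice housed apart. In bulk crypts, more cells of a type and more RNA per cell cannot be told apart, and the part of cell content in the levels of the 3 genes was not tested.

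One label speaks of liver at RNA extraction while the others give crypts, so hepatocyte markers were also read. Albumin (Alb) had a mean of -2.70. Of 7 found of 8, 1 reached the minimum mean, the thyroid hormone carrier Ttr, which rose by 0.42 ± 0.10 in Xiap-/- mice housed apart (limma adjusted p = 0.0346). Ttr passed in 13 of the 20 fits without 1 library, and those without a co-housed library cannot change this difference. It differed by 0.10 ± 0.09 in co-housed mice. The call was lost without Xiap-/- replicates 2, 3 or 4 or WT replicates 1, 2, 3 or 4 housed apart (limma adjusted p between 0.0570 and 0.152), with only the 2 groups in the fit (limma adjusted p = 0.114) and with the depth proxy as a covariate (limma adjusted p = 0.796). The Xiap transcript ran from 6.25 to 6.48 in Xiap-/- mice and from 6.56 to 7.08 in WT mice housed apart, and from 6.29 to 6.91 in Xiap-/- mice and from 6.36 to 6.84 in WT mice when co-housed. The differences of -0.43 ± 0.11 and -0.05 ± 0.11 did not pass (limma adjusted p = 0.0599 and 0.868). Reads from the transcript's end check the label only if the deletion reaches it, which the sources used here do not give. The lowest Xiap-/- library of either housing still held the transcript at 6.25, far above the lowest values of the table. The Xiap level thus checks the genotype labels in neither housing, and in co-housed mice the groups overlapped.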

How the data were processed

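The authors deposited 1 table of normalized values on a log2 scale, from -3.88 to 16.30, for 23020 genes in 20 libraries. The submitters' processing notes name DESeq2 1.18.1 and the build GRCm38.p6. The transformation, aligner and counter are not given in the sources used here. Low values sit on a plateau near each gene's own mean. Counts are not in the table, so depth is unknown and no counting interval is given. Its proxy is the share of rare genes (mean below -3) more than 0.015 above their median over libraries. No 2 libraries were identical, and 24 date-like symbols were not named.

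Groups came from the sample titles. The deposited values, with no pseudocount, were fitted in limma 3.58.1 (R 4.3.3), with 4 group means over 20 libraries, a variance trend and robust moderation. A gene was tested at a mean of at least log2 of 10 and called passing, two-sided, where its p adjusted over 9521 genes by Benjamini-Hochberg lay below 0.05. The fit was tested on simulated data. Summed levels are log2 of summed unlogged values.

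The members, the 10 lists and the tests were chosen with earlier results of these data known. Named genes are the members, each list's passing genes (at most 4) or its 2 highest means, every tested pancreatic gene with the 4 next, the 5 closest by Pearson's r, and Xiap. Others, such as neighbours, Pnlip, Cel, Rbpjl and Alb, were chosen after their values were seen. Protein sequences were not used here. Alternatives were other filters, moderation, weights, scalings, a depth covariate, a replicate block and single libraries left out.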

Additional observations from a re-analysis of the deposited data

How the results depend on the processing

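The co-housed differences of Clps, Pnliprp2 and Cela1 kept their sign and did not pass under any alternative tried (limma adjusted p from 0.414 to 0.820 over the processing alternatives, and from 0.507 to 0.928 without 1 library). The genotype difference of Clps housed apart was 0.41 with the depth proxy as a covariate, against 0.72, and its excess over the co-housed difference was 0.22, against 0.52. Cela1 has no value under the stricter filter, since its mean is below 5.

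The 43 genes passing in mice housed apart became 12 with only the 2 groups fitted, 27 with the stricter filter, 65 without trend and robust moderation, 385 with array quality weights, 3 with the depth proxy, 350 with the replicate block and 694 without WT replicates 5 and 6 (chosen after seeing the data). Without 1 library they ran from 9 to 697, with 9, 10 and 11 without Xiap-/- replicates 2, 3 and 4, 13, 12, 28, 11, 697 and 67 without WT replicates 1 to 6 housed apart, and 28 without co-housed Xiap-/- replicate 1. The 3 genes passing in co-housed mice became 142 with only the 2 groups fitted, 10 without a filter, 0 with the stricter filter (limma, with 1144 of 9521 genes at an unadjusted p under 0.05 in the main analysis), 159 with array quality weights and 40 without WT replicates 5 and 6, and ran from 1 to 12 without 1 library (5 and 12 without WT replicates 3 and 4 housed apart, 1, 6 and 1 without co-housed Xiap-/- replicates 1, 2 and 4, and 6 and 1 without co-housed WT replicates 1 and 3). Rnase1 in co-housed mice, at 0.01, ran between -0.042 and 0.061 without 1 library, and was below 0 without Xiap-/- replicate 1 or 5 (both -0.020) or WT replicate 2.

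The replicate numbers share only a number across groups. Deviations of same-numbered libraries correlated at -0.14 to 0.25 over 9 pairs, and 1 of 9 Xiap-/- libraries matched its own number best. The replicate block cannot change the co-housed differences (0.20 for Clps and 0.09 for Cela1), since both co-housed groups hold the same replicate numbers. With the block the Pnliprp2 housing difference in WT mice was 0.02, against -0.09. In mice housed apart 2 of the 3 genes, Clps and Pnliprp2, then passed, where 350 genes passed in all, against 43 without the block. In all, at least 1 of the 3 passed in mice housed apart in 4 of 20 settings without 1 library and in 5 of 10 others. All genes passing ran from 9 to 697 and from 3 to 694 in these settings. Nothing is read from the tally, since the genes were chosen on that comparison. Counts per library are unknown, which limits what can be said of the lowest genes.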

Other observations

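The genes that receive the products of fat digestion were compared between the housings, with values only. In Xiap-/- mice, co-housed minus housed apart had a median of -0.30 over the 13 tested genes of fat uptake and re-esterification, and 11 of 13 lay below 0. The fatty acid transporter Cd36 differed by -0.62 ± 0.13 (SE), apolipoprotein B (Apob) by -0.49 ± 0.14 and Fabp1 by -0.46 ± 0.16, all chosen after their values were seen. In WT mice the median was -0.16, again with 11 of 13 below 0, and Cd36 differed by -0.23 ± 0.11, Apob by 0.13 ± 0.13 and Fabp1 by 0.01 ± 0.14, so Apob and Fabp1 lay on the other side of 0. Other genes of the list went the other way. The 2 above 0 in Xiap-/- mice, Slc27a4 (0.08 ± 0.12) and Dgat1 (0.07 ± 0.11), differed by -0.35 ± 0.11 and -0.29 ± 0.10 in WT mice. Npc1l1 (-0.08 in Xiap-/- and -0.24 in WT mice) and Fabp2 (-0.13 and -0.22) were also lower in the WT comparison. Over all tested genes the medians were 0.00 and -0.01, with 50.2% and 48.1% above 0. Absorptive enterocyte markers, which share Fabp2 with this list, had medians of -0.13 in Xiap-/- mice and -0.25 in WT mice, and the part of epithelial content was not tested.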
